A study of Mus musculus with 24 samples.

Results

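HSCs of middle-aged TTPΔARE mice (M-TTPΔARE) were compared with HSCs of middle-aged WT mice (M-WT), to ask which transcripts differ when TTP is made in excess. The comparison took the 3 libraries whose titles name M-TTPΔARE HSCs and the 5 that name M-WT HSCs, which are 8 of the 24 bulk mRNA-seq libraries of the series. The TTPΔARE allele is a germline deletion of an AU-rich element from the 3′ UTR of Zfp36, so it acts in every cell of the mouse and not in HSCs alone. Per the study's methods, the mice were homozygous TTPΔARE males and male WT littermates about 1 year old, and the labels give no treatment. The cells were sorted from bone marrow as Lineage-Sca1+cKit+ (LSK) CD34-Flk2-CD150+. The labels do not say whether each library is a separate mouse, and p-values therefore measure the spread between libraries. The HSC libraries of young animals (Y-HSC, 4 Y-TTPΔARE and 4 Y-WT) were used to show where age changed the result.

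TTP, the protein of Zfp36, binds AU-rich elements in the 3′ UTRs of mRNAs and recruits the CCR4-NOT deadenylase, after which the mRNA is degraded. Its known targets include mRNAs of inflammatory cytokines and chemokines, of feedback inhibitors of cytokine signalling and of growth factors, and also its own mRNA, whose AU-rich element is missing in TTPΔARE mice. HSCs are mostly quiescent cells of the marrow that give rise to all blood lineages. With age they gain megakaryocyte and platelet transcripts and a myeloid bias.

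The sum of counts lay between 34626967 and 39934554 in the M-WT libraries and between 30534452 and 36974836 in the M-TTPΔARE libraries. Values are given as CPM, the counts of a gene relative to the library total, scaled with TMM factors. Transcripts that mark HSCs were present in every library. Kit, the stem cell factor receptor used in the sort, lay between 1274 and 1909 CPM, Slamf1, which encodes CD150, between 88.1 and 142 CPM, and the HSC transcription factor Hlf between 485 and 710 CPM. The T-cell gene Cd3e lay between 0.106 and 1.07 CPM in M-WT and was at 4.13, 0.271 and 3.15 CPM in M-TTPΔARE. The granulocyte gene Camp did not exceed 2.08 CPM. Some genes of other lineages were higher. The T-cell gene Lck lay between 10.9 and 18.7 CPM, the B-cell gene Cd79a between 4.70 and 27.0 CPM and the monocyte gene Csf1r between 11.6 and 15.4 CPM. Genes of the Olfr and Vmn receptor families, which blood is not known to use, summed to between 41.4 and 215 CPM in M-WT and to 422, 210 and 90.3 CPM in M-TTPΔARE replicates 1, 2 and 3. M-WT replicate 3 stood above the other M-WT libraries in several of the genes below. Values without this library are given beside some of those genes.

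Genes counted as called had an adjusted p under 0.05 (edgeR's quasi-likelihood test, Benjamini-Hochberg adjustment), a fold change over 1.2 and an average log2 CPM over 1.5, the limits of the study's methods. Errors after log2 fold changes are SE. Of 21136 genes tested, 13413 were over the logCPM limit. In M-TTPΔARE HSCs 150 genes were called lower (1.12% of those over the limit) and 148 were called higher (1.10%). The groups did not overlap in 294 of these 298 genes, whereas 7.78% and 5.74% of genes over the limit lay wholly below or wholly above M-WT. Changes were small for most of them, and 43 lower and 32 higher genes exceeded 2-fold. Among the called genes, 5 lower and 1 higher gene were immunoglobulin segment genes, and these are not described further. With all segment genes left out of the fit, 220 genes were called lower and 215 higher. Of 104 called genes selected by the rule for named genes, 23 kept their call with each of the 8 libraries left out, Tgfbi, Ndnf, Pdgfrb and Rasgef1b among them. The calls of Zbtb46, Irf5, Cbx7, Srxn1 and Sema6b were lost whichever library was left out. Those of Vegfa, Vcam1, Gins2, Lamp2, Atad2 and Cd28 were kept in 1 of the 8 fits, and those of Cldn5, Selp, Cxcr4, Fasn and Lmo2 in 2. DESeq2 called 452 genes lower (3.37%) and 371 higher (2.77%). With upper quartile factors in place of TMM the split was 124 lower and 221 higher. Without M-TTPΔARE replicate 1, 2 or 3 there were 49, 80 and 37 lower and 46, 56 and 31 higher genes.

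**Figure D1:**
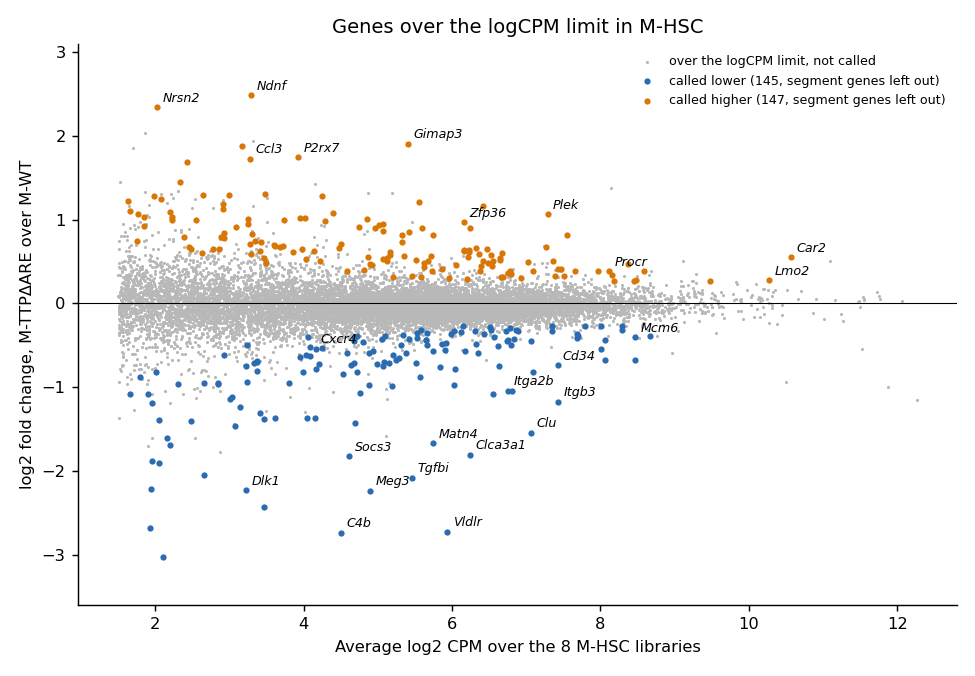
The log2 fold change of M-TTPΔARE over M-WT (vertical axis) is plotted against the average log2 CPM of the 8 libraries (horizontal axis) for each gene over the logCPM limit. The 145 lower genes (blue) and 147 higher genes (orange) that are not immunoglobulin or T-cell receptor segment genes are spread over the whole range of abundance. The 91 segment genes over the limit and 1 gene outside the plotted range are not drawn.

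To describe the called genes by function, 53 lists of pathways, families and cell type markers were used. They hold 1352 genes over the logCPM limit, of which 48 (3.55%) were called lower and 39 (2.88%) higher. At least 1 gene was called in 44 of the 53 lists. The lists were written with results of these data known, so these shares do not compare the lists with the other genes on equal terms.

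Zfp36 itself (chr7:28376784-28380253, minus strand, GRCm38) was at 48.9, 51.8, 43.6, 54.5 and 64.0 CPM in M-WT and at 95.4, 105 and 109 CPM in M-TTPΔARE. Each M-TTPΔARE library was above each M-WT library, and the level was 1.96-fold higher (log2 fold change 0.97 ± 0.11, adjusted p = 0.002, exact permutation p = 0.0179, two-sided, the smallest p that 3 against 5 libraries allow). The call held with each of the 8 libraries left out. Zfp36 overlaps the gene model Gm44710 on the other strand. Of 25 genes for the TTP family and other proteins that bind AU-rich elements, Zfp36 was the gene called. Its relatives Zfp36l1 and Zfp36l2, which also recruit deadenylases to AU-rich mRNAs, were not called. Of 43 genes of mRNA deadenylation and decay 1 was called, Cnot6, a catalytic subunit of CCR4-NOT. It was at 168, 173, 175, 174 and 177 CPM in M-WT and at 136, 153 and 142 CPM in M-TTPΔARE, a small decrease without overlap of the groups (log2 fold change -0.27 ± 0.053, adjusted p = 0.0297). Among 18 genes of the p38-MK2 pathway, which inactivates TTP by phosphorylation, and of its phosphatases, Dusp4 was at 33.6, 34.6, 26.7, 31.8 and 33.6 CPM in M-WT and at 48.9, 57.6 and 54.0 CPM in M-TTPΔARE and rose (log2 fold change 0.74 ± 0.092, adjusted p = 0.0036). Dusp4 encodes a nuclear phosphatase of MAP kinases, and its call held with each library left out.

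**Figure D2:**
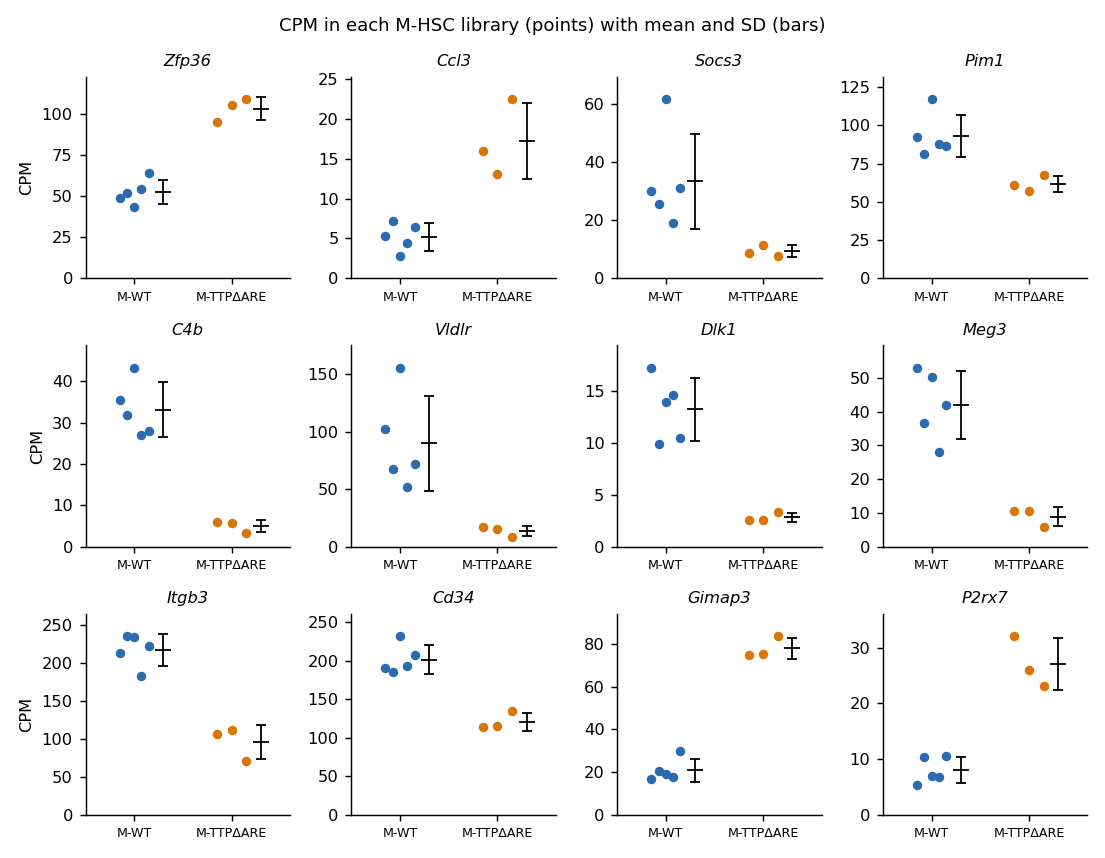
CPM (vertical axis, from 0) of 12 genes in each of the 5 M-WT libraries (blue points) and the 3 M-TTPΔARE libraries (orange points), with the mean and SD of each group (black). In each panel the groups do not overlap, and M-WT replicate 3 is the highest library for Socs3, at 61.5 CPM.

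Of 42 transcripts reported elsewhere as TTP targets, 27 were over the logCPM limit in HSCs. Of these, 3 were called lower, Socs3 and Pim1 among them, and 2 were called higher, Ccl3 and Vegfa. The median log2 fold change of the 27 was -0.04, beside -0.03 over all genes over the limit. To show the kind of sequence that TTP binds, a 29-base window of the reference 3′ UTR is printed for Zfp36 and some called targets. These are the called targets that hold TATTTAT, the 7-base core of an AU-rich element. Binding of TTP at the printed positions was not examined. ATTTA pentamers are in capitals. The reference sequence is shown, and which of these bases the TTPΔARE deletion removes from Zfp36 was not examined. The windows were read on the strand of the transcript from the longest 3′ UTR annotated by GENCODE M21 (GRCm38), and are those with the most pentamers.
Zfp36, chr7:28376951-28376979, minus strand: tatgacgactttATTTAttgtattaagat
Ccl3, chr11:83648003-83648031, minus strand: gtatttgtgactATTTAttctgaaagact
Vegfa, chr17:46017166-46017194, minus strand: ttgttatcATTTATTTAttggtgctactg
Socs3, chr11:117966133-117966161, minus strand: acatatATTTAtATTTAtactcagaaaag
Pim1, chr17:29495685-29495713, plus strand: aagttttaatgtATTTATTTATTTATTTA
The Pim1 window holds 4 overlapping pentamers, those of Vegfa and Socs3 hold 2 each, and those of Zfp36 and Ccl3 hold 1.

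Socs3, a feedback inhibitor of cytokine receptors that signal through STAT3, was at 29.9, 25.5, 61.5, 19.2 and 31.0 CPM in M-WT and at 8.80, 11.6 and 7.81 CPM in M-TTPΔARE. Socs3 fell (log2 fold change -1.83 ± 0.33, adjusted p = 0.0222), and M-WT replicate 3 was the highest library. Without it the log2 fold change was -1.50 (adjusted p = 0.00639). The kinase gene Pim1, which is induced by STAT signalling and promotes survival, was at 92.6, 81.2, 117, 87.6 and 86.6 CPM in M-WT and at 60.7, 57.1 and 67.4 CPM in M-TTPΔARE, and fell less (log2 fold change -0.59 ± 0.11, adjusted p = 0.0269, and -0.50 (adjusted p = 0.0179) without M-WT replicate 3). Calls of Socs3 and Pim1 were lost when any 1 of the 3 M-TTPΔARE libraries was left out. Ccl3, which encodes the chemokine MIP-1α and holds TATTTAT once in its 3′ UTR, was at 5.26, 7.14, 2.76, 4.38 and 6.41 CPM in M-WT and at 16.0, 13.1 and 22.4 CPM in M-TTPΔARE. It rose (log2 fold change 1.73 ± 0.26, adjusted p = 0.00946), and its call was lost without M-TTPΔARE replicate 3. Vegfa, the endothelial growth factor, was at 10.5, 8.41, 9.20, 9.39 and 9.49 CPM in M-WT and at 13.5, 11.9 and 15.7 CPM in M-TTPΔARE, and rose less (log2 fold change 0.55 ± 0.12, adjusted p = 0.0458), with the call kept in 1 of the 8 fits that left out a library. Il1r1, the receptor of IL-1, was at 19.2, 16.4, 16.9, 18.6 and 18.7 CPM in M-WT and at 11.7, 11.1 and 15.7 CPM in M-TTPΔARE, and the adhesion molecule gene Ncam1 at 15.0, 12.0, 16.8, 18.6 and 10.7 CPM in M-WT and at 9.59, 8.64 and 6.30 CPM in M-TTPΔARE. The groups did not overlap in either gene, but neither was called by edgeR's quasi-likelihood test (log2 fold change -0.48 ± 0.13, adjusted p = 0.0849 and log2 fold change -0.84 ± 0.20, adjusted p = 0.0635, respectively). DESeq2 called both (adjusted p = 0.0104 and 0.00141). The paper, which used edgeR without naming its test, reports both as significantly lower in middle-aged TTPΔARE HSCs. Tnf and Il6 were under the logCPM limit.

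The share of genes with TATTTAT in the longest 3′ UTR was compared between the called genes and all genes over the limit that have an annotated 3′ UTR. Of 11485 genes, 3486 (30.4%) held it. Of the genes called lower, 33 of 133 (24.8%, 95% Wilson interval 18.2 to 32.8%) held it, and of the genes called higher, 54 of 139 did (38.8%, interval 31.2 to 47.1%). The intervals of the lower and the higher genes overlapped between 31.2 and 32.8%, which does not show that the shares are alike. The share of all genes, 30.4%, was within the interval of the lower genes and below that of the higher genes. Median 3′ UTR lengths were 1328 bases for the lower, 1144 bases for the higher and 1192 bases for all genes. With genes split by 3′ UTR length into 3 classes of about equal size, short, middle and long, the shares were 2.78%, 22.6% and 45.5% for lower genes, 13.7%, 40.0% and 64.6% for higher genes and 10.4%, 28.1% and 52.6% for all genes. The pentamer ATTTA was in 71.4% of lower, 74.1% of higher and 70.5% of all genes. The nonamer TTATTTATT was in 5.26%, 5.76% and 8.11%. These motifs lie within each other, were searched on the transcribed strand, and their shares are a description of the annotated sequence without a test.

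Among chemokines and their receptors, 16 of 56 genes were over the limit, 2 were called higher, Ccl3 and Cx3cl1, and 1 lower, Cxcr4. The median log2 fold change of the 11 chemokines was 0.58, and 2 of them were negative. Ccl4, the neighbour of Ccl3 on chromosome 11 that encodes MIP-1β, was at 24.4, 29.2, 16.4, 25.6 and 25.5 CPM in M-WT and at 44.0, 33.3 and 36.3 CPM in M-TTPΔARE, without overlap of the groups but not called by edgeR (log2 fold change 0.65 ± 0.16, adjusted p = 0.0696), whereas DESeq2 called it (adjusted p = 0.00203). Cx3cl1, fractalkine, was at 20.6, 26.0, 15.5, 17.3 and 21.3 CPM in M-WT and at 39.0, 34.2 and 40.6 CPM in M-TTPΔARE and rose (log2 fold change 0.91 ± 0.14, adjusted p = 0.0111). Cxcr4, the receptor that retains HSCs in the marrow by CXCL12, was at 18.1, 23.2, 21.6, 18.5 and 19.6 CPM in M-WT and at 13.2, 13.0 and 15.4 CPM in M-TTPΔARE, and fell (log2 fold change -0.54 ± 0.11, adjusted p = 0.0389). In the TNF and NF-κB list 59 of 70 genes were over the limit, and their median log2 fold change was -0.04. The death receptor gene Tnfrsf25 (log2 fold change 1.03 ± 0.16, adjusted p = 0.0115) and Tnip3, an inhibitor of NF-κB signalling (log2 fold change 0.41 ± 0.077, adjusted p = 0.0254), rose. Vcam1, an adhesion molecule gene induced by NF-κB, fell (log2 fold change -1.30 ± 0.28, adjusted p = 0.0438), but its call was kept in 1 of the 8 fits that left out a library. None of 16 adaptors and NF-κB subunits was called by edgeR, where 3 had an unadjusted p under 0.05, and DESeq2 called 1. The receptor genes Tnfrsf1a and Tnfrsf1b were not called.

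Genes of the IL-6 family and JAK-STAT signalling had 5 lower genes of 39 over the limit, Socs3, Pim1, Pim2, Lrg1 and Jak3, and 1 higher gene, Il21r. Of the 16 inhibitors and targets of the pathway, 11 had a negative log2 fold change, and 4 of these were called. Pim2, a kinase gene like Pim1, was at 111, 127, 213, 119 and 122 CPM in M-WT and at 67.7, 67.0 and 66.2 CPM in M-TTPΔARE. Its decrease (log2 fold change -1.05 ± 0.19, adjusted p = 0.0207) remained without M-WT replicate 3, the highest library, at -0.85 (adjusted p = 4.07e-04). Its call was lost when any 1 of the 3 M-TTPΔARE libraries was left out. Lrg1, an acute-phase glycoprotein gene induced by STAT3, was low in every library, at 4.01, 8.67, 8.43, 2.92 and 3.34 CPM in M-WT and at 0.726, 1.57 and 0.229 CPM in M-TTPΔARE (log2 fold change -2.69 ± 0.57, adjusted p = 0.0417), and it lies next to Sema6b on chromosome 17. Its call was lost without M-WT replicate 2 or 3 or M-TTPΔARE replicate 1 or 3, and without M-WT replicate 3 its log2 fold change was -2.49 (adjusted p = 0.0743). Jak3, the kinase of the common gamma chain receptors, was at 289, 285, 329, 272 and 306 CPM in M-WT and at 212, 234 and 209 CPM in M-TTPΔARE (log2 fold change -0.44 ± 0.068, adjusted p = 0.0102), and it overlaps Insl3. Stat3 itself was at 461, 514, 521, 471 and 468 CPM in M-WT and at 402, 424 and 401 CPM in M-TTPΔARE, with an adjusted p of 0.0471, but its log2 fold change of -0.25 ± 0.055 (SE) was within the fold limit. Il21r, an IL-21 receptor gene, rose (log2 fold change 0.39 ± 0.076, adjusted p = 0.0319). Csf3r, the receptor of G-CSF, whose signal also runs through STAT3, was the 1 gene called among 22 growth factor receptors, at 196, 140.2, 173, 138 and 169 CPM in M-WT and at 89.6, 106 and 82.6 CPM in M-TTPΔARE (log2 fold change -0.82 ± 0.12, adjusted p = 0.00838). The transcription factor gene Cebpd, a further STAT3-induced gene, fell (log2 fold change -0.82 ± 0.15, adjusted p = 0.0231). The granulocyte transcripts Ltf, S100a8 and Camp were low in every library, with Ltf between 0.793 and 1.27 CPM in M-WT and between 0.401 and 0.433 CPM in M-TTPΔARE. S100a8 lay between 1.95 and 4.82 CPM in M-WT and between 0.704 and 1.89 CPM in M-TTPΔARE, and Camp between 0.286 and 2.08 CPM and between 0.2004 and 0.704 CPM. None of these 3 was called by edgeR (adjusted p = 0.138, 0.0635 and 0.286, respectively), and the part of granulocytes in the values of Csf3r, Lrg1, Cebpd and Clec4e was not tested. Of the 13 IL-1 and IL-18 genes over the limit none was called by edgeR, where 2 lower genes and 1 higher gene had an unadjusted p under 0.05, and DESeq2 called 1.

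Of 54 genes of HSC identity over the limit, 4 were called higher and 1 lower. Procr, which encodes the HSC surface marker EPCR, was at 238, 279, 252, 235 and 245 CPM in M-WT and at 329, 311 and 338 CPM in M-TTPΔARE (log2 fold change 0.38 ± 0.061, adjusted p = 0.0115). Lmo2, a bridging factor of haematopoietic transcription complexes, was at 1243, 1200, 1076, 1109 and 1097 CPM in M-WT and at 1354, 1458 and 1353 CPM in M-TTPΔARE (log2 fold change 0.28 ± 0.057, adjusted p = 0.0368). Hoxa9 (log2 fold change 0.35 ± 0.061, adjusted p = 0.0194) and the nuclear receptor gene Rora (log2 fold change 0.51 ± 0.10, adjusted p = 0.0308) also rose. Cd34, whose protein the sort excluded, was at 190.1, 185, 232, 194 and 207 CPM in M-WT and at 114, 115 and 134 CPM in M-TTPΔARE and fell (log2 fold change -0.74 ± 0.085, adjusted p = 0.00252), and its call held with each library left out. As the cells were gated as CD34-, the mRNA shows a difference within that gate. In bulk libraries, fewer cells with a transcript and less of it per cell cannot be told apart.

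Among a short list of 23 aging markers, which are higher in HSCs of aged mice, 4 fell and 2 rose. Clu, a secreted chaperone gene, was at 177, 181, 232, 152 and 149.5 CPM in M-WT and at 63.6, 73.3 and 46.2 CPM in M-TTPΔARE (log2 fold change -1.55 ± 0.17, adjusted p = 0.002), and Clca3a1, a calcium-activated chloride channel regulator gene, was at 109.8, 88.9, 134, 81.4 and 101 CPM in M-WT and at 27.4, 34.4 and 26.6 CPM in M-TTPΔARE (log2 fold change -1.81 ± 0.16, adjusted p = 5.28e-04). Both calls held with each library left out. Clca3a1 overlaps the gene model Gm34866 on the other strand. Selp (log2 fold change -0.68 ± 0.15, adjusted p = 0.047) and Itgb3 (log2 fold change -1.18 ± 0.14, adjusted p = 0.00276) fell as well, whereas Sbspon (log2 fold change 1.00 ± 0.16, adjusted p = 0.0104) and Cyp26b1 (log2 fold change 1.21 ± 0.25, adjusted p = 0.0368), which encodes an enzyme that degrades retinoic acid, rose. Vwf, a marker of platelet-biased HSCs, was at 469.9, 401, 383, 376 and 389 CPM in M-WT and at 352, 386 and 257 CPM in M-TTPΔARE and was not called (log2 fold change -0.28 ± 0.12, adjusted p = 0.268). The median log2 fold change of the list was -0.09, and 12 of the 23 genes were negative. Other genes that the paper's aging signature holds as higher with age were called in both directions. Outside this list, Eya4, Plek, Trpc1 and Procr were called higher, and C4b, Vldlr, Matn4 and Muc1 lower.

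Of 51 genes of S phase and mitosis over the limit, 42 had a negative log2 fold change, beside 58.5% of all genes over the limit, and the median of the list was -0.22. Of the 51, 3 were called lower, the helicase subunit genes Mcm6 and Mcm3 and the replication factor gene Gins2. Mcm6 was at 331, 372, 450.3, 415 and 383 CPM in M-WT and at 271, 306 and 307 CPM in M-TTPΔARE (log2 fold change -0.41 ± 0.089, adjusted p = 0.0498), and Mcm3 at 203, 213, 269, 235 and 217 CPM in M-WT and at 165, 176 and 182 CPM in M-TTPΔARE (log2 fold change -0.39 ± 0.085, adjusted p = 0.0499). Gins2 fell by less (log2 fold change -0.34 ± 0.073, adjusted p = 0.047). Mcm2, of the same helicase, was at 154, 157, 224, 197 and 175 CPM in M-WT and at 117, 125 and 136 CPM in M-TTPΔARE, just outside the threshold by edgeR (log2 fold change -0.52 ± 0.12, adjusted p = 0.0512) and within it by DESeq2 (adjusted p = 1.31e-04). DESeq2 called 14 genes of the list lower and none higher, and the edgeR count without 1 library ranged from 0 to 8. The calls of Mcm3 and Mcm6 were lost without any 1 of M-WT replicates 4 and 5 and the 3 M-TTPΔARE libraries. In Y-HSC the median of the same 51 genes was 0.09. A Y-HSC median over all genes is not given here, for this list or for those below. Y-HSC medians of other lists lay on both sides of 0. They were 0.09 for oxidative phosphorylation subunits, 0.08 for proteasome subunits and -0.10 for cholesterol and fatty acid metabolism.

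Regulators of G1 and of quiescence moved in both directions, with 2 lower and 2 higher of 26. Cdk6, which sets how fast HSCs leave quiescence, was at 137, 80.5, 139, 107 and 121 CPM in M-WT and at 68.6, 71.7 and 68.2 CPM in M-TTPΔARE (log2 fold change -0.75 ± 0.15, adjusted p = 0.033), and M-WT replicate 2 was close to the M-TTPΔARE libraries. Without M-WT replicate 3 the log2 fold change of Cdk6 was -0.69 (adjusted p = 0.0578). Rbl1, which encodes the pocket protein p107, fell (log2 fold change -0.36 ± 0.068, adjusted p = 0.0269). Cdkn1c, which encodes the cell cycle inhibitor p57, was at 77.6, 89.2, 70.0, 81.3 and 73.2 CPM in M-WT and at 102, 111 and 115 CPM in M-TTPΔARE and rose (log2 fold change 0.48 ± 0.081, adjusted p = 0.0163). Gfi1, a repressor that restrains HSC proliferation, was at 28.4, 28.6, 34.3, 29.9 and 28.6 CPM in M-WT and at 46.6, 39.9 and 51.1 CPM in M-TTPΔARE and rose (log2 fold change 0.61 ± 0.094, adjusted p = 0.00968). Dnmt1, the maintenance DNA methyltransferase gene, was 1 of 2 called among 26 epigenetic regulators, and fell (log2 fold change -0.41 ± 0.067, adjusted p = 0.0136), while Cbx7, a Polycomb gene, rose (log2 fold change 0.31 ± 0.067, adjusted p = 0.0445), with a call that was lost whichever library was left out. Of 44 p53 targets and apoptosis genes, Sesn1 was called (log2 fold change 0.34 ± 0.066, adjusted p = 0.0284).

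Of 24 megakaryocyte and platelet genes 10 were negative, with a median of 0.07, 3 were called lower and 1 higher. Both chains of the platelet fibrinogen receptor fell. Itga2b (CD41) was at 148, 115, 148, 135 and 125 CPM in M-WT and at 73.3, 59.4 and 63.0 CPM in M-TTPΔARE (log2 fold change -1.04 ± 0.10, adjusted p = 7.95e-04), and Itgb3 (CD61) at 212, 235, 233, 183 and 223 CPM in M-WT and at 107, 112 and 70.4 CPM in M-TTPΔARE. Selp, P-selectin, was at 351, 319, 358, 263 and 258 CPM in M-WT and at 208, 226 and 148 CPM in M-TTPΔARE. Plek, which encodes the protein kinase C substrate pleckstrin, was at 94.3, 134, 72.0, 125 and 127 CPM in M-WT and at 204, 230.2 and 262 CPM in M-TTPΔARE, so that it rose where the integrins fell (log2 fold change 1.07 ± 0.17, adjusted p = 0.012). Pf4, platelet factor 4, was at 21.0, 24.3, 13.7, 33.3 and 27.4 CPM in M-WT and at 32.7, 24.1 and 44.8 CPM in M-TTPΔARE and was not called (log2 fold change 0.50 ± 0.25, adjusted p = 0.355). The calls of Itga2b and Itgb3 held with each library left out.

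By count, adhesion genes had the most called genes of any list, 6 lower and 1 higher of 39. Of all genes over the limit 2.22% were called. The count depends on the size of a list, and some smaller lists had a larger share, such as the GIMAP family below with 3 of 9. Itga2b, Itgb3, Selp and Vcam1 are counted in other lists as well. Beside Itga2b, Itgb3, Selp and Vcam1, the membrane mucin genes Muc1 and Muc13 fell. Muc1 was at 10.8, 10.3, 34.4, 8.76 and 14.9 CPM in M-WT and at 2.46, 3.52 and 2.78 CPM in M-TTPΔARE (log2 fold change -2.43 ± 0.44, adjusted p = 0.0224), and without M-WT replicate 3 its log2 fold change was -1.94 (adjusted p = 0.00256). The call of Muc1 was lost when any 1 of the 3 M-TTPΔARE libraries was left out. Muc13 was at 466, 369, 472, 388 and 357 CPM in M-WT and at 267, 255 and 248 CPM in M-TTPΔARE (log2 fold change -0.68 ± 0.10, adjusted p = 0.0069). Itgb7, an integrin gene of lymphocyte homing, rose (log2 fold change 0.82 ± 0.12, adjusted p = 0.00892). Of 34 semaphorin, plexin and ephrin genes, Plxnb2 and Sema6b fell. Plxnb2, a receptor of class 4 semaphorins, was at 129, 107, 127, 106 and 113 CPM in M-WT and at 54.2, 60.1 and 51.1 CPM in M-TTPΔARE (log2 fold change -1.08 ± 0.087, adjusted p = 4.35e-04), and its call held with each library left out, whereas that of Sema6b was lost whenever a library was left out (log2 fold change -0.49 ± 0.11, adjusted p = 0.0453). Tgfbi, a matrix protein gene induced by TGF-β, was at 56.7, 51.9, 102, 46.0 and 52.3 CPM in M-WT and at 13.6, 12.9 and 17.3 CPM in M-TTPΔARE, and was the 1 gene called of 36 in the TGF-β and BMP list (log2 fold change -2.08 ± 0.25, adjusted p = 0.00289). Without M-WT replicate 3 its log2 fold change was -1.83 (adjusted p = 2.98e-04). The sphingosine phosphate receptor gene S1pr1 (log2 fold change -0.56 ± 0.087, adjusted p = 0.0102) and the gene Rhoj (log2 fold change -0.56 ± 0.084, adjusted p = 0.00864, and -0.51 (adjusted p = 0.0103) without M-WT replicate 3), both of which act in migration, fell too.

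The imprinted genes Dlk1 (chr12:109452823-109463336) and Meg3 (chr12:109541001-109571726), neighbours in 1 imprinted domain on the plus strand, both fell. Dlk1, the paternally expressed gene of a NOTCH-like ligand, was at 17.2, 9.83, 13.9, 14.5 and 10.5 CPM in M-WT and at 2.52, 2.60 and 3.29 CPM in M-TTPΔARE (log2 fold change -2.23 ± 0.21, adjusted p = 7.29e-04). Meg3, the maternally expressed long non-coding RNA, was at 53.02, 36.7, 50.4, 28.0 and 41.8 CPM in M-WT and at 10.6, 10.5 and 5.72 CPM in M-TTPΔARE (log2 fold change -2.24 ± 0.25, adjusted p = 0.00206). Both were called with each library left out. Rian, the next maternally expressed transcript of the domain, was at 6.86, 3.65, 7.47, 6.90 and 7.01 CPM in M-WT and at 4.70, 3.01 and 1.37 CPM in M-TTPΔARE, overlapped between groups and was not called by edgeR (log2 fold change -1.08 ± 0.34, adjusted p = 0.157), whereas DESeq2 called it lower (adjusted p = 0.0270). Of 18 imprinted genes over the limit 1 rose, Cdkn1c. In Y-HSC neither Dlk1 (log2 fold change -0.76 ± 0.37, adjusted p = 0.706) nor Meg3 (log2 fold change -0.56 ± 0.18, adjusted p = 0.413) was called, though both were negative. By edgeR's age by genotype interaction, described below, neither gene was called to differ between ages (adjusted p = 0.249 for Dlk1 and 0.143 for Meg3).

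Complement and acute-phase genes had 4 lower genes and 1 higher gene of 19. C4b, complement component 4, was at 35.6, 31.9, 43.3, 27.0 and 28.0 CPM in M-WT and at 6.06, 5.61 and 3.26 CPM in M-TTPΔARE, 1 of the largest decreases (log2 fold change -2.74 ± 0.23, adjusted p = 4.35e-04). Its sequence is close to that of C4a, so reads of the pair may be shared. Serping1, which encodes the C1 inhibitor, was at 8.71, 6.40, 8.54, 5.33 and 7.11 CPM in M-WT and at 3.38, 2.14 and 2.69 CPM in M-TTPΔARE (log2 fold change -1.40 ± 0.21, adjusted p = 0.00864). Clu, an inhibitor of the terminal complex, and Lrg1 are given above. Pglyrp1, a peptidoglycan recognition protein gene, rose (log2 fold change 0.67 ± 0.11, adjusted p = 0.0141). The calls of C4b and Clu held with each library left out.

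Several of the genes that fell are also used by endothelial cells, macrophages or stromal cells of the marrow. Fabp4, a fatty acid carrier of sinusoidal endothelium, was at 8.63, 17.6, 10.7, 10.5 and 7.29 CPM in M-WT and at 2.84, 4.55 and 4.47 CPM in M-TTPΔARE (log2 fold change -1.47 ± 0.28, adjusted p = 0.0273). Mrc1, the macrophage mannose receptor, was at 4.11, 8.86, 4.60, 6.04 and 3.09 CPM in M-WT and at 1.23, 1.35 and 0.859 CPM in M-TTPΔARE (log2 fold change -2.21 ± 0.34, adjusted p = 0.0102). Sparc, a matrix protein, was at 4.11, 7.83, 6.83, 5.96 and 4.63 CPM in M-WT and at 1.36, 3.20 and 1.17 CPM in M-TTPΔARE (log2 fold change -1.61 ± 0.34, adjusted p = 0.0403), and Pdgfrb, a receptor of mesenchymal cells, at 21.4, 15.1, 23.4, 20.3 and 26.0 CPM in M-WT and at 9.28, 8.15 and 7.33 CPM in M-TTPΔARE (log2 fold change -1.36 ± 0.17, adjusted p = 0.00308). Cldn5, a tight junction gene that HSCs also contain, fell (log2 fold change -0.66 ± 0.13, adjusted p = 0.0368). Of 24 endothelial genes over the limit 3 were called, all lower, and of 17 monocyte and macrophage genes 2 were, Mrc1 and Vcam1. Of 8 stromal genes, Pdgfrb and Sparc fell and Bgn, biglycan, rose (log2 fold change 0.59 ± 0.088, adjusted p = 0.00838). Cdh5, the defining cadherin of endothelium, was low, at 0.660, 1.16, 1.54, 1.26 and 1.37 CPM in M-WT and at 0.536, 0.731 and 0.172 CPM in M-TTPΔARE (log2 fold change -1.31 ± 0.49, adjusted p = 0.217). Plvap was at 7.52, 15.0, 13.6, 7.27 and 5.98 CPM in M-WT and at 2.08, 5.63 and 0.916 CPM in M-TTPΔARE (log2 fold change -1.77 ± 0.51, adjusted p = 0.113), and Stab2, of sinusoids, at 6.58, 15.7, 13.2, 13.1 and 5.95 CPM in M-WT and at 5.96, 3.93 and 2.15 CPM in M-TTPΔARE (log2 fold change -1.44 ± 0.38, adjusted p = 0.0927). None of these 3 was called by edgeR, though each had a lower median in M-TTPΔARE, and DESeq2 called Stab2 (adjusted p = 0.0400). Of the endothelial genes, DESeq2 called 6 lower and 1 higher. Kdr, the VEGF receptor, lay between 28.2 and 40.2 CPM in M-WT and between 33.4 and 34.2 CPM in M-TTPΔARE. The summed level of the 34 endothelial genes was between 1634 and 1764 CPM in M-WT and between 1523 and 1586 CPM in M-TTPΔARE. That of the 26 stromal genes was between 181 and 203 CPM in M-WT and between 216 and 233 CPM in M-TTPΔARE, and that of the 36 monocyte and macrophage genes between 190.4 and 240.4 CPM and between 199.7 and 240.1 CPM. No library was at 0 for Cdh5, Kdr, Plvap, Col1a1, Cxcl12, Lepr or Csf1r. The stromal genes Col1a1, Cxcl12 and Lepr had positive log2 fold changes of 1.30, 1.14 and 0.47. EdgeR called none of them (adjusted p = 0.327, 0.624 and 0.762, respectively). Of the 8 stromal genes over the limit 5 were positive, with a median of 0.11. The part of endothelial, macrophage or stromal cells in the decreases above was not tested. In Y-HSC, the median log2 fold change of the same 24 endothelial genes was -0.52 and 23 were negative, beside -0.10 and 15 in M-HSC.

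**Figure D3:**
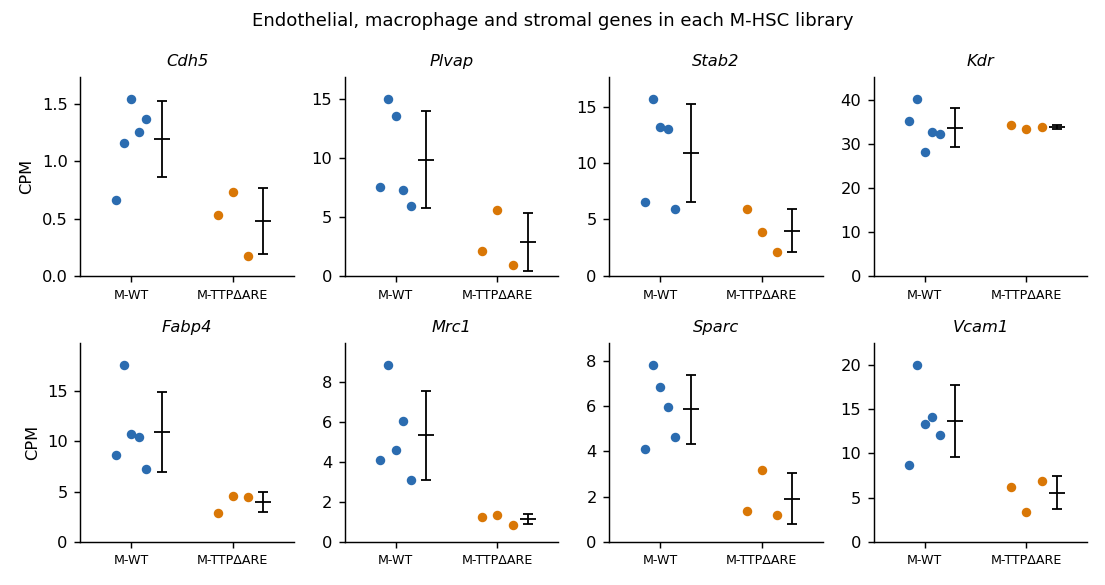
CPM (vertical axis, from 0) of 4 endothelial genes (Cdh5, Plvap, Stab2 and Kdr), the endothelial fatty acid carrier Fabp4, the macrophage receptor Mrc1, Sparc and Vcam1, in each M-WT (blue) and M-TTPΔARE (orange) library with the mean and SD (black). Kdr overlaps between the groups, and Cdh5 is under 2 CPM in each library.

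The GIMAP family of GTPases, which support survival of lymphocytes and lie in 1 cluster on chromosome 6, was on 1 side of M-WT. All 9 members had a positive log2 fold change, with a median of 0.34, and 3 were called higher by edgeR and 6 by DESeq2. Gimap3 (chr6:48764464-48770851) was at 16.7, 20.4, 19.3, 17.8 and 29.9 CPM in M-WT and at 74.9, 75.4 and 83.7 CPM in M-TTPΔARE (log2 fold change 1.91 ± 0.16, adjusted p = 4.35e-04). Gimap7 was at 2.84, 2.62, 2.70, 3.26 and 3.11 CPM in M-WT and at 8.30, 6.69 and 13.2 CPM in M-TTPΔARE (log2 fold change 1.69 ± 0.20, adjusted p = 0.00276) and Gimap4 at 27.6, 36.4, 29.9, 37.5 and 32.8 CPM in M-WT and at 59.3, 50.6 and 67.6 CPM in M-TTPΔARE (log2 fold change 0.85 ± 0.12, adjusted p = 0.00633). These calls held with each library left out. Gimap6 (log2 fold change 0.38 ± 0.087, adjusted p = 0.0546) and Gimap5 (log2 fold change 0.30 ± 0.071, adjusted p = 0.0592) did not overlap between groups but missed the threshold of edgeR. Members of the family are close in sequence, and reads may be shared between them. Over the 34 T and NK cell genes 8 were over the limit, of which the co-stimulatory receptor gene Cd28 was called higher, at a low level (log2 fold change 0.92 ± 0.19, adjusted p = 0.0395). The summed level of these 34 genes was between 172 and 194 CPM in M-WT and between 203 and 241 CPM in M-TTPΔARE, and its part in the GIMAP values was not tested.

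Of 20 purinergic receptor and ectonucleotidase genes 14 were positive. P2rx7, the ATP-gated channel that leads to inflammasome activation, was at 5.41, 10.5, 6.97, 6.87 and 10.6 CPM in M-WT and at 32.1, 26.0 and 23.1 CPM in M-TTPΔARE (log2 fold change 1.75 ± 0.21, adjusted p = 0.00276), and its call held with each library left out. P2ry1, the ADP receptor of platelets, was at 11.5, 10.3, 11.0, 12.0 and 12.3 CPM in M-WT and at 4.61, 7.69 and 5.55 CPM in M-TTPΔARE (log2 fold change -0.94 ± 0.16, adjusted p = 0.0175). Hence edgeR called 1 ATP or ADP receptor higher and 1 lower. Of the 11 receptors of the list over the limit 8 were positive, and DESeq2 called 4 higher and 1 lower.

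Myeloid transcription factors and granule genes included 4 higher genes and 1 lower gene of 16. Beside Gfi1 and Cebpd, these were Hk3, the hexokinase of myeloid cells, Padi4, a histone-citrullinating enzyme, and Irf5. Hk3 was at 64.8, 61.6, 57.7, 61.6 and 65.5 CPM in M-WT and at 95.7, 94.5 and 96.7 CPM in M-TTPΔARE, with little spread within groups (log2 fold change 0.62 ± 0.06, adjusted p = 7.95e-04), and its call held with each library left out. Padi4 was at 117, 109.9, 117, 101 and 122 CPM in M-WT and at 162, 169 and 146 CPM in M-TTPΔARE (log2 fold change 0.49 ± 0.073, adjusted p = 0.00838), and Irf5 rose least (log2 fold change 0.32 ± 0.064, adjusted p = 0.0362), with a call that was lost whichever library was left out. Csf1r, the M-CSF receptor, was not called. In the dendritic cell list Zbtb46 (log2 fold change 0.48 ± 0.10, adjusted p = 0.0437) and Cd24a (log2 fold change 0.47 ± 0.063, adjusted p = 0.00587) rose, of which Zbtb46 lost its call whichever library was left out. All 11 MHC class II genes over the limit were positive, with a median of 0.15, but none was called by edgeR, where 1 had an unadjusted p under 0.05, or by DESeq2. Of 16 erythroid genes Car2, the abundant carbonic anhydrase gene, was at 1289, 1487, 1099, 1304 and 1256 CPM in M-WT and at 1740, 1920 and 1997 CPM in M-TTPΔARE and rose (log2 fold change 0.55 ± 0.082, adjusted p = 0.00838). Xbp1, the factor of the unfolded protein response and of plasma cells, was at 317, 271, 322, 253 and 296 CPM in M-WT and at 179.6, 201 and 222 CPM in M-TTPΔARE and fell (log2 fold change -0.54 ± 0.091, adjusted p = 0.0158). It was the gene called among 33 of the unfolded protein and heat shock response, whose median was -0.14 in M-HSC and 0.16 in Y-HSC. The Y-HSC median of the 84 cytosolic ribosomal proteins was 0.13. The summed level of the 29 B-cell lineage genes, immunoglobulin constant genes included, was between 6807 and 18987 CPM in M-WT and between 2356 and 8916 CPM in M-TTPΔARE, and the part of B-lineage cells in the Xbp1 value was not tested.

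In lipid metabolism, Vldlr, the receptor of very low density lipoprotein, was at 102, 67.5, 155, 51.5 and 71.5 CPM in M-WT and at 17.2, 15.1 and 8.47 CPM in M-TTPΔARE. It fell more than any other called gene of its list of 51 (log2 fold change -2.72 ± 0.37, adjusted p = 0.00602), and its call held with each library left out, at -2.44 (adjusted p = 0.00357) without M-WT replicate 3. Fasn, the fatty acid synthase, was at 159, 127, 144, 162 and 148 CPM in M-WT and at 121, 108 and 96.5 CPM in M-TTPΔARE (log2 fold change -0.45 ± 0.092, adjusted p = 0.0378). Insig1, which restrains sterol synthesis, rose (log2 fold change 0.63 ± 0.12, adjusted p = 0.0304), as did Hpgds, a prostaglandin D synthase gene (log2 fold change 0.66 ± 0.13, adjusted p = 0.0332). Other genes called in lists of metabolism and stress were the sulfiredoxin gene Srxn1 (log2 fold change 0.29 ± 0.062, adjusted p = 0.0437), whose call was lost whichever library was left out, and the lysosomal membrane gene Lamp2 (log2 fold change -0.32 ± 0.066, adjusted p = 0.0384). Of signalling regulators, Spry4, an inhibitor of RAS-MAPK signalling, rose (log2 fold change 0.84 ± 0.15, adjusted p = 0.0224), as did the GTPase-activating protein gene Arhgap15 (log2 fold change 0.55 ± 0.083, adjusted p = 0.00946). The clock gene Per1 was at 21.8, 31.4, 31.6, 27.5 and 33.6 CPM in M-WT and at 19.3, 16.5 and 16.9 CPM in M-TTPΔARE and fell (log2 fold change -0.73 ± 0.13, adjusted p = 0.0238). Most of its list did not fall with it. Of 20 circadian clock genes over the limit 14 were positive, with a median log2 fold change of 0.11. In this list edgeR called Per1 lower and Rora higher, and DESeq2 called 2 lower and 6 higher.

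Large housekeeping lists held few or no called genes. Of all 13413 genes over the logCPM limit, 848 lower and 639 higher had an unadjusted edgeR p under 0.05 and also passed the fold limit. Counts at this p for the lists carry no fold limit, so the matching numbers over all genes are at least these. None of 76 oxidative phosphorylation subunits was called by edgeR or DESeq2, and 3 lower and 1 higher had an unadjusted edgeR p under 0.05. None of 84 cytosolic ribosomal proteins was called by edgeR, where 1 lower and 9 higher had an unadjusted p under 0.05, and DESeq2 called 1 lower. None of 27 MHC class I and antigen processing genes was called by either tool, with 3 lower and 1 higher at an unadjusted edgeR p under 0.05. Of 31 genes of the Notch, Wnt and Hedgehog pathways edgeR called none, with 7 lower and 3 higher at an unadjusted p under 0.05, and DESeq2 called 1 lower and 2 higher. None of 9 replication-dependent histones was called by either tool, and 1 had an unadjusted edgeR p under 0.05. The median log2 fold changes were -0.06 for oxidative phosphorylation and 0.06 for ribosomal proteins. Of 63 interferon-stimulated genes 1 was called, Gbp9, a guanylate-binding protein gene that overlaps Gbp4 and Gbp8 in the annotation (log2 fold change 0.64 ± 0.12, adjusted p = 0.0231), and 41 of 63 were negative. In the Schlafen family of 6 genes, Slfn9 fell (log2 fold change -0.79 ± 0.12, adjusted p = 0.00901). Of 24 pattern recognition receptors, Clec4e (Mincle) fell (log2 fold change -0.81 ± 0.16, adjusted p = 0.0366), and none of 11 Toll-like receptors was called by edgeR, where 1 had an unadjusted p under 0.05, or by DESeq2. Of 38 proteasome subunits 1 was called, the testis-type subunit gene Psma8 (log2 fold change -0.71 ± 0.11, adjusted p = 0.0111). Of 21 immediate early genes, Zfp36 was the gene called. None of 3 Ifi200 genes (0 at an unadjusted p under 0.05), 5 basophil and mast cell genes (1) or 7 mitochondrially encoded genes (2) was called by edgeR, and DESeq2 called 1 basophil or mast cell gene.

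**Figure D4:**
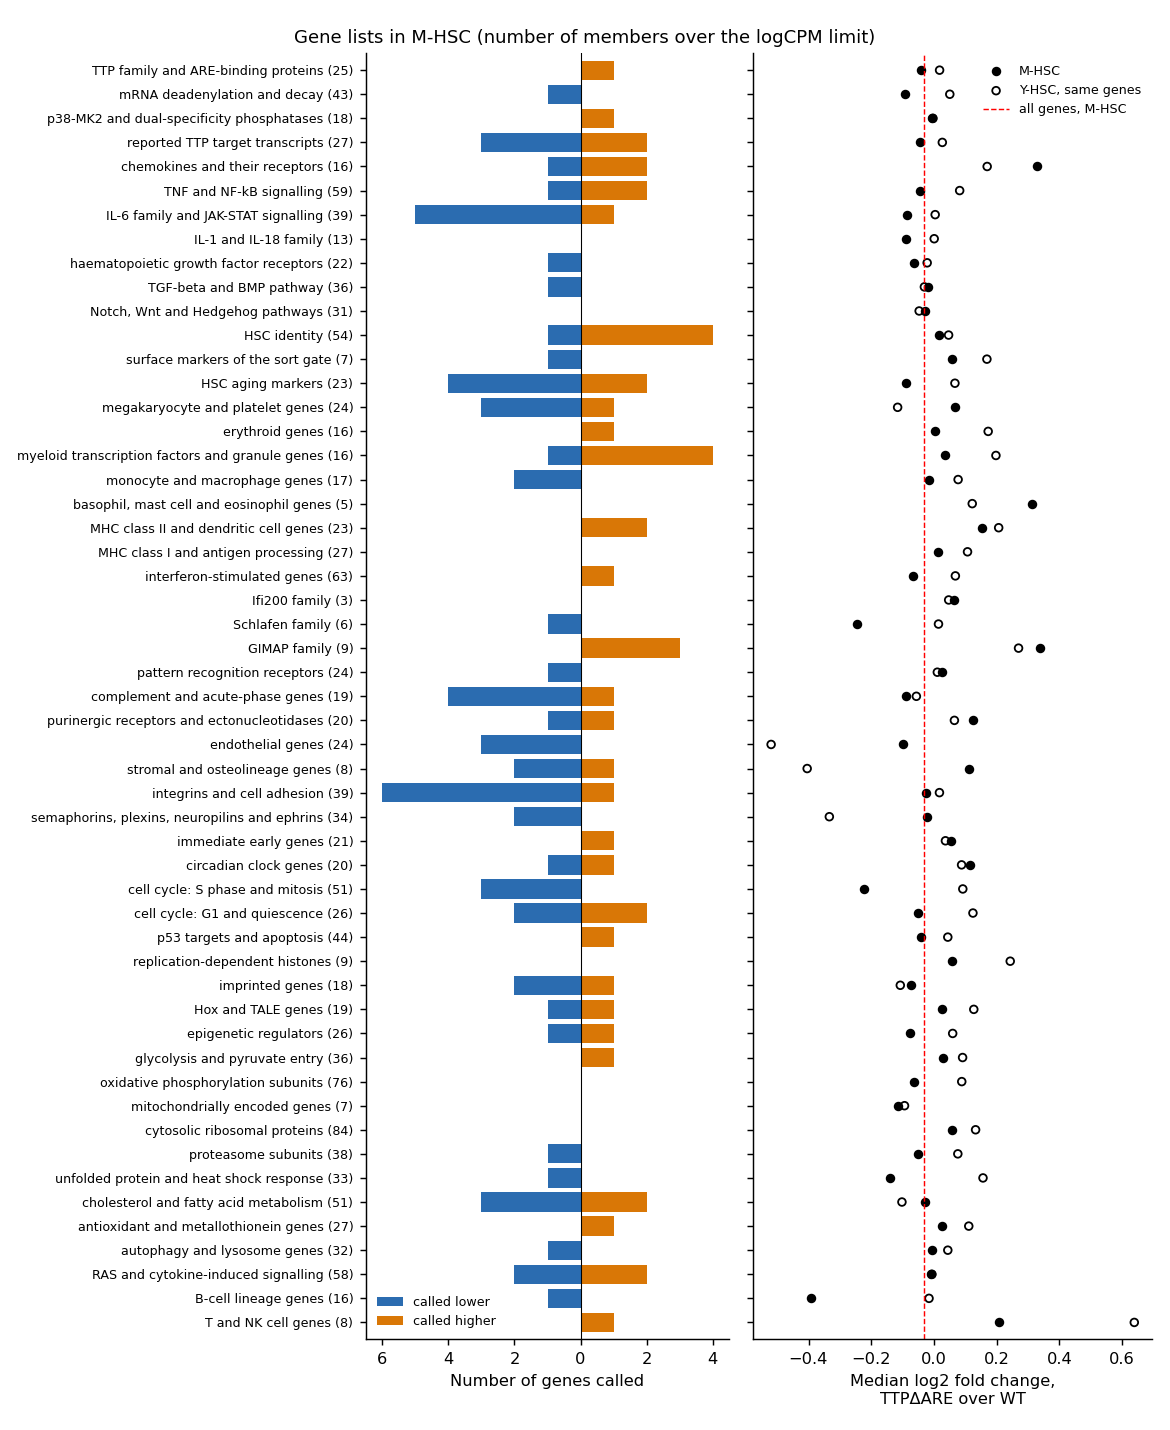
For each of 53 gene lists, the left panel shows how many members were called lower (blue, to the left) and higher (orange, to the right) in M-HSC, with the number over the logCPM limit in parentheses. The right panel shows the median log2 fold change of the list in M-HSC (filled) and of the same genes in Y-HSC (open), with the median of all genes in M-HSC at -0.03 (dashed). Adhesion genes have 6 lower genes, and S phase genes have a median of -0.22.

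Outside these lists, the largest decreases included Tmem215, a transmembrane protein gene, at 5.84, 3.97, 14.4, 3.18 and 4.05 CPM in M-WT and at 1.199, 0.542 and 0.572 CPM in M-TTPΔARE (log2 fold change -3.03 ± 0.56, adjusted p = 0.0231). Without M-WT replicate 3 its log2 fold change was -2.48 (adjusted p = 0.0104). The call of Tmem215 was lost when any 1 of the 3 M-TTPΔARE libraries was left out. Matn4, a matrix protein gene that restrains HSC proliferation under stress, was at 73.9, 74.3, 77.0, 74.7 and 60.4 CPM in M-WT and at 20.1, 25.5 and 22.5 CPM in M-TTPΔARE, the smallest adjusted p among the genes named here (log2 fold change -1.67 ± 0.10, adjusted p = 8.76e-05). It overlaps Rbpjl on the other strand. Fgf3, a fibroblast growth factor gene, was at 4.32, 4.60, 6.86, 4.87 and 5.75 CPM in M-WT and at 1.10, 1.52 and 1.66 CPM in M-TTPΔARE (log2 fold change -1.88 ± 0.22, adjusted p = 0.00247), and Gpm6a, a neuronal membrane glycoprotein gene, at 3.91, 7.24, 5.76, 7.02 and 6.66 CPM in M-WT and at 1.14, 2.57 and 1.95 CPM in M-TTPΔARE (log2 fold change -1.69 ± 0.28, adjusted p = 0.0141). The calls of Matn4 and Fgf3 held with each library left out.

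The largest increases included Ndnf, a secreted neurotrophic factor gene, at 2.84, 3.97, 2.42, 3.26 and 5.39 CPM in M-WT and at 24.5, 18.6 and 17.3 CPM in M-TTPΔARE (log2 fold change 2.49 ± 0.23, adjusted p = 6.06e-04), and Nrsn2, a neuronal vesicle gene, at 1.02, 2.33, 0.551, 1.92 and 2.13 CPM in M-WT and at 8.33, 7.64 and 8.30 CPM in M-TTPΔARE (log2 fold change 2.35 ± 0.34, adjusted p = 0.00833). The transcription cofactor gene Eya4 was at 2.03, 5.76, 4.35, 7.64 and 2.48 CPM in M-WT and at 19.2, 16.7 and 13.4 CPM in M-TTPΔARE (log2 fold change 1.89 ± 0.35, adjusted p = 0.0244). Abi3bp, a matrix protein gene, was at 2.51, 3.81, 2.23, 3.32 and 3.32 CPM in M-WT and at 8.08, 6.55 and 10.2 CPM in M-TTPΔARE (log2 fold change 1.45 ± 0.20, adjusted p = 0.00659), and the cation channel gene Trpc1 at 4.62, 7.24, 4.11, 4.78 and 4.91 CPM in M-WT and at 10.4, 14.6 and 13.0 CPM in M-TTPΔARE (log2 fold change 1.30 ± 0.18, adjusted p = 0.0069). Further genes of this size were Shisa9 (1.31), Ildr1 (1.29), Rnf39 (1.29), Aldh3a1 (1.25) and Ndrg4 (1.22), in log2 fold change. All 10 of these genes were low in HSCs, and none exceeded the 24.5 CPM of Ndnf. Of the 10, Ndnf kept its call with each library left out. Calls of Eya4, Shisa9, Rnf39 and Ndrg4 were lost when any 1 of the 3 M-TTPΔARE libraries was left out. Those of Nrsn2, Abi3bp and Trpc1 were lost without M-TTPΔARE replicate 3. Ildr1 kept its call in 4 of the 8 fits and Aldh3a1 in 6. The Olfr and Vmn level given above was highest in M-TTPΔARE replicate 1, and the part of such reads in these increases was not tested.

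To ask whether HSCs of young mice differed in the same way, the 279 called genes that were over the limit at both ages were followed in Y-HSC. The ages share no library. The sign was the same for 229 of them (82.1%), 109 of 139 lower and 120 of 140 higher genes, beside 50.9% of all 13169 genes over the limit at both ages. An unadjusted p under 0.05 with the same sign was found in Y-HSC for 93 of the 279 genes (33.3%), beside 5.91% of all genes, and with the opposite sign for 5 (1.79%), beside 3.42%. The median log2 fold change of the lower genes was -0.66 in M-HSC and -0.20 in Y-HSC, and that of the higher genes 0.62 and 0.22. Smaller values in Y-HSC are partly given by the choice of the genes in M-HSC. Zfp36 was not called in Y-HSC by this fit, though its fold change was close to that in M-HSC (log2 fold change 0.96 ± 0.21, adjusted p = 0.238). Ccl3 (log2 fold change 1.66 ± 0.17, adjusted p = 0.0285), Clca3a1 (log2 fold change -1.55 ± 0.18, adjusted p = 0.0285), Tgfbi (log2 fold change -1.15 ± 0.14, adjusted p = 0.0432) and Hk3 (log2 fold change 0.75 ± 0.084, adjusted p = 0.0285) were also called in Y-HSC.

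The effect of TTPΔARE differed between ages, by an interaction term over the 16 HSC libraries, for 6 of 13667 genes over the limit (0.0439%). Rasgef1b, a guanine nucleotide exchange factor gene, was at 50.6, 59.4, 59.8, 55.8 and 59.5 CPM in M-WT and at 33.5, 25.8 and 33.8 CPM in M-TTPΔARE and fell, with a log2 fold change of -0.88 ± 0.10 (SE) in M-HSC, beside Y-HSC at log2 fold change 0.26 ± 0.095, adjusted p = 0.536 (interaction -1.18 ± 0.15, adjusted p = 0.0122). Cxcr4 fell in M-HSC and was at log2 fold change 0.73 ± 0.12, adjusted p = 0.126 in Y-HSC (interaction -1.32 ± 0.18, adjusted p = 0.0149). Per1 likewise fell in M-HSC and was at log2 fold change 1.44 ± 0.25, adjusted p = 0.138 in Y-HSC (interaction -2.22 ± 0.31, adjusted p = 0.0174). Ndnf rose in M-HSC, as given above, and was at log2 fold change 0.35 ± 0.18, adjusted p = 0.708 in Y-HSC (interaction 2.09 ± 0.31, adjusted p = 0.0258). The chromatin factor gene Atad2 was at 81.3, 92.6, 98.1, 104 and 92.2 CPM in M-WT and at 71.3, 73.8 and 72.9 CPM in M-TTPΔARE and fell (log2 fold change -0.37 ± 0.077, adjusted p = 0.0411), with log2 fold change 0.18 ± 0.07, adjusted p = 0.555 in Y-HSC (interaction -0.60 ± 0.10, adjusted p = 0.041). Foxp4, a forkhead factor gene, was at 21.8, 22.5, 23.7, 24.1 and 22.9 CPM in M-WT and at 19.3, 18.5 and 18.8 CPM in M-TTPΔARE and was not called in M-HSC by edgeR (log2 fold change -0.29 ± 0.077, adjusted p = 0.0935), with log2 fold change 0.41 ± 0.10, adjusted p = 0.265 in Y-HSC (interaction -0.74 ± 0.12, adjusted p = 0.041). The count of 6 genes became 0 without M-WT replicate 3 or without Y-TTPΔARE replicate 1, and 56 without Y-WT replicate 1. DESeq2 called 160. Age and the set of libraries cannot be told apart.

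**Figure D5:**
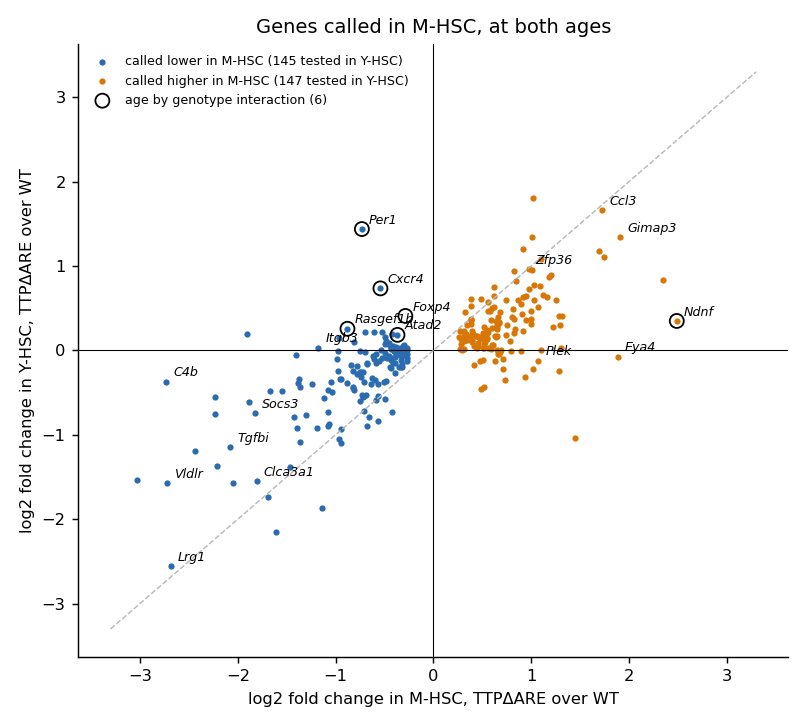
The log2 fold change of TTPΔARE over WT in Y-HSC (vertical axis) is plotted against that in M-HSC (horizontal axis) for the 145 lower (blue) and 147 higher (orange) genes called in M-HSC and tested in Y-HSC, segment genes left out. The dashed line marks equal change, circles mark the 6 genes of the age by genotype interaction, and 229 of the 279 genes over the limit at both ages have the same sign at both.

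Genes near the altered locus were examined by position. Of 61 other genes over the limit within 1 Mb of Zfp36 none was called by edgeR, where 9 had an unadjusted p under 0.05, and DESeq2 called 2. Among all 13413 genes over the limit, at least 848 lower and 639 higher had an unadjusted p under 0.05. Of 166 within 5 Mb 3 were called (1.81%, beside 2.22% of all genes over the limit). On chromosome 7 as a whole 14 of 1030 genes were called (1.36%). Xist, the X-inactivation RNA, was low in these libraries of male mice, at 4.88, 4.12, 4.27, 4.09 and 5.44 CPM in M-WT and at 2.62, 1.98 and 1.89 CPM in M-TTPΔARE, and was called lower (log2 fold change -1.08 ± 0.18, adjusted p = 0.0156). It overlaps Tsix on the other strand. The Y-linked genes Ddx3y and Kdm5d lay between 94.7 and 124 CPM and between 46.0 and 50.7 CPM. Xist was named after its values were seen.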

How the data were processed

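Reads of sorted HSCs were processed by the authors, who trimmed with Cutadapt, aligned to the mm10 genome with STAR on a GENCODE M22 index and counted reads per gene with featureCounts. The deposited values are these raw counts for 55376 genes, and neither strand nor the treatment of reads with several matches is given in the sources used here. The labels and the methods name different cDNA kits. Groups came from the labels.

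From the counts, edgeR 4.0.16 (R 4.3.3) was run with filterByExpr (minimum count 10, minimum total 15), TMM factors and the quasi-likelihood test with Benjamini-Hochberg adjustment over all genes tested. The 8 M-HSC libraries were fitted without the other groups, and the age by genotype interaction over 16 HSC libraries. The limits of a call were an adjusted p of 0.05, a fold change of 1.2 and a log2 CPM of 1.5. SE was derived from the log2 fold change and its F statistic. Libraries held at least 30534452 counts, and genes of a few CPM carry the most counting error. Wilson intervals cover counting error only. Zfp36 was also tested by exact permutation.

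Genes were named by rule. These were Zfp36, the called genes of each list, up to 4 in each direction by smallest p, the leading genes of each role, up to 15 genes in each direction with the largest changes and no overlap, and the interaction genes. The lists and the comparison were chosen with earlier results of these data known. Of the list entries, 11 matched no gene of the table. 3′ UTRs were read from GENCODE M21 (GRCm38), matched by symbol. Counting without known strand cannot separate overlapping genes. The procedure was tested on simulated counts. Alternatives were DESeq2 1.42.0, other scaling factors and filters, a fit of 16 libraries, a replicate block and leaving out each library. The labels do not say whether replicate numbers pair the libraries. Deviations of same-numbered libraries from their group means correlated at -0.03, -5.29e-04 and -0.04, and those of other pairs at -0.07 to 0.09. Since deviations were taken within small groups, these values cannot exclude a pairing. Libraries of other cell populations were not analysed here, and some genes are not reported here.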

Additional observations from a re-analysis of the deposited data

Results flagged for a closer look

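In 13 of 118 groups of 5 M-WT libraries, each group being 1 named gene, 1 library lay far from the other 4 (Dixon's test). Chance flags about 1 group in 20. M-WT replicate 3 was this library for 7 of the genes, as the highest for Tmem215 at 14.4 CPM, Muc1 at 34.4 CPM, Tgfbi at 102.2 CPM, Socs3 at 61.5 CPM, Pim2 at 213 CPM and Rhoj at 70.4 CPM. The last was Gfi1, at 34.3 CPM. Without this library the log2 fold change was -0.51 (adjusted p = 0.0103) for Rhoj and 0.66 (adjusted p = 0.00876) for Gfi1. The call of Rhoj was lost without M-TTPΔARE replicate 3, and that of Gfi1 without M-TTPΔARE replicate 1 or 3. M-WT replicate 5 was the lowest for Matn4, at 60.4 CPM, and the highest for Gimap3, at 29.9 CPM. M-WT replicate 2 was the highest for Trpc1, at 7.24 CPM, and the lowest for Rian, at 3.65 CPM. M-WT replicate 1 was the highest for Psma8, at 34.0 CPM, and for Vwf, at 469.9 CPM.

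The 6 genes below had a different effect of TTPΔARE in M-HSC and in Y-HSC by the interaction term of edgeR. The difference in log2 fold change (M-HSC minus Y-HSC) was -1.18 for Rasgef1b, -1.32 for Cxcr4, -2.22 for Per1, 2.09 for Ndnf, -0.74 for Foxp4 and -0.60 for Atad2.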

How the results depend on the processing

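The count of lower genes, 150 as reported, was 452 with DESeq2, 503 without the filter on low counts and 43 at over 2-fold, and ranged from 37 to 155 with 1 library left out. The count of higher genes, 148, was 371, 339 and 32 in the same settings, 45 with all 16 HSC libraries in the fit, and 31 to 156 with 1 library left out. Lowest counts were without M-TTPΔARE replicate 3. With immunoglobulin and T-cell receptor segment genes left out of the fit, there were 220 lower and 215 higher genes. Of the called genes 49.7% were higher as reported, and 64.1% with upper quartile factors, 40.3% without the filter and 28.8% with 16 libraries. A replicate block gave 65 lower and 43 higher genes (39.8% higher), but the numbers share no source in the labels. The rise of Zfp36 was called under each other tool, scaling, filter, fit and left-out library tried, but it was under 2-fold and so is not among the genes counted past that limit.

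Of 104 named genes called, 23 kept the call with each library left out, 41 with the replicate block and 104 with DESeq2, and none changed sign. The interaction, 6 genes, gave 160 with DESeq2, 27 with the likelihood ratio test, 12 with the replicate block and 0 to 56 with 1 library left out. The share of same signs in Y-HSC, 82.1%, was 71.1% with DESeq2 and 74.7 to 90.3% with 1 library left out. Shares with an AU-rich motif, 24.8% of lower and 38.8% of higher genes, were 5.26% and 5.76% with the 9-base and 71.4% and 74.1% with the 5-base motif, which are nested by construction. The cause of the other changes was not tested. With 3 M-TTPΔARE libraries, small changes and genes of a few CPM are the least certain.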
